A study of Mus musculus with 4 samples.

Results

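Socs2, Serpina3g and Chrna1 were followed over a range of FGF2 doses in feeder fibroblasts. They are 3 of the 8131 genes that could be named on the array, and 4 of its 46116 probes. The genes were chosen by their measured values on these same arrays, as genes whose change at 40 ng/ml was only partly reached at 4 ng/ml. Their own changes and shares are therefore given as a description, with no test. Each gene was located by the NCBI gene number contained in the probe identifier, a reading that is inferred (82.6% of such numbers are mouse genes). Socs2 and Serpina3g had 1 probe each and Chrna1 had 2, and 3 of the 4 probes passed the filter on dim signals.

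All cells were CF1 mouse embryonic fibroblasts, of the kind used as a feeder layer for human embryonic stem cells, and all had been inactivated with mitomycin C, which stops division. They were plated on gelatine and changed to basic human embryonic stem cell medium containing serum replacement. The treated groups received FGF2 at 4, 13 or 40 ng/ml for 24 h, with 1 array per dose, and the control group received the same medium without FGF2, with 3 arrays that the labels call biological replicates. Total RNA was amplified and Cy3-labelled for Illumina bead arrays read in a single colour. Values are mean signals over the beads of a probe, on a linear scale with the background still included.

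The 6 arrays had median signals of 102.5 to 113.6 and between 11195 and 11698 detected probes. A probe was called detected at a detection score of at least 0.99, the score being the rank of its signal among the negative control probes of the array. All 5 fibroblast markers with a probe (of 11 listed) were detected on all 6 arrays. Their summed signal was 19257 to 23097 with FGF2 and 31867 to 38764 in control, with Col1a1, Col1a2 and Col3a1 lower. The brightest Dcn probe and S100a4 did not pass the test, and a second Dcn probe rose (log2 0.35, adjusted p = 0.0361). None of the 12 skeletal muscle markers had a named probe, so the muscle identity of any cell could not be examined through them. Of the other cell types, 0 of 4 immune markers with a probe and 0 of 1 endothelial marker were detected. Krt18, 1 of 2 epithelial markers with a probe, was detected on the FGF2 arrays only and was at least 1.12-fold higher there. It passed the filter on dim signals through those arrays alone, so no p-value is given for it. Nes and Tubb3 were detected among 5 neural markers, and Map2, Sox2 and Gfap were not. Nes rose (log2 0.87 with neqc and 2.17 with normexp, adjusted p = 0.0081 with neqc), and Tubb3 did not pass. Whether these marker changes have a part in the results that follow was not tested. In such bulk RNA, fewer cells of a type and less RNA per cell cannot be told apart.

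The 3 genes belong to unrelated families. Socs2 encodes a suppressor of cytokine signalling, an adaptor whose SH2 domain binds phosphorylated receptors and whose SOCS box recruits a ubiquitin ligase. It is known for restraining growth hormone signalling, and its transcription is a standard target of STAT5. Serpina3g, also called Spi2A, encodes an intracellular serine protease inhibitor that also inhibits lysosomal cathepsins, and it is induced by interferon gamma and NF-kappaB in immune cells. Chrna1 encodes the alpha 1 subunit of the nicotinic acetylcholine receptor of skeletal muscle, which carries the acetylcholine binding site, and in muscle cells it is switched on by myogenic factors that bind E-boxes.

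In the mouse assembly GRCm38.p6, Socs2 (NCBI gene 216233) lies at chr10:95383903-95417321, Serpina3g (20715) at chr12:104236147-104241939 and Chrna1 (11435) at chr2:73563281-73580338. RefSeq's upstream sequence was at hand for Serpina3g and Chrna1. The 250 bases before each annotated start are shown because some known regulators of these genes bind short motifs, whose letters can be read directly. The Serpina3g sequence is the plus strand at chr12:104235897-104236146, with the only match to the STAT motif TTCNNNGAA in capitals. It begins 33 bases before the start.

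Serpina3g: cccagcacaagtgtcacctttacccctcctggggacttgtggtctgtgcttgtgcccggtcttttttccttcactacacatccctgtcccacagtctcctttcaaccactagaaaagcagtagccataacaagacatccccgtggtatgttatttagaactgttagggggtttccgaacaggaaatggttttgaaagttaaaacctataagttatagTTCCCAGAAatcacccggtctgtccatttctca

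The Chrna1 sequence is the minus strand at chr2:73580339-73580588, with its 3 E-boxes (CANNTG) in capitals. They begin 92, 73 and 44 bases before the start.

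Chrna1: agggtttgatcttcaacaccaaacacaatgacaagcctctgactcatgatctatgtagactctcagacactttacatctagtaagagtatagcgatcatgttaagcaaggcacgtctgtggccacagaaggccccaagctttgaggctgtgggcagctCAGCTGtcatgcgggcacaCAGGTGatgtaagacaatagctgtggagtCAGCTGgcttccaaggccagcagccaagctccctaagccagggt

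Both strands were searched for the motifs named here only. The binding motif of NF-kappaB was not searched, so nothing is said about its presence in either sequence. Of 32851 RefSeq promoters cut to the same 250 bases, 7.02% hold the STAT motif and 66.2% hold at least 1 E-box. The form CAGCTG, which overlaps the general E-box, is present in 13.0% of promoters and occurs 2 or more times in 1.26%, as it does in Chrna1. The AP-1 motif TGANTCA, found in 6.75% of promoters, occurs once in Chrna1, 211 bases before the start. Serpina3g has 1 further E-box, 243 bases before the start. Neither sequence holds the core of the interferon response element, which 2.98% of promoters hold. These matches are letters in a window and do not show that a factor was bound.

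Socs2 was higher at every dose, and its signal grew with each increase in dose. The 3 control arrays read 219.3, 236.9 and 224.5, and the arrays at 4, 13 and 40 ng/ml read 574.9, 1199.2 and 1333. The lowest FGF2 array lay above the highest control, and the controls spread little around their mean of 226.9 ± 9.04 (SD, n = 3). After background correction with neqc in limma and quantile normalisation, the log2 changes against the control mean were 0.95, 2.22 and 2.67 at 4, 13 and 40 ng/ml, or 1.94-fold, 4.64-fold and 6.38-fold. Taking each control array in turn as the baseline gave 0.91 to 0.99 at 4 ng/ml and 2.63 to 2.70 at 40 ng/ml. The step between 4 and 13 ng/ml was 1.26 on the log2 scale, and that between 13 and 40 ng/ml was 0.46. The control SD on this scale was 0.0378. With normexp at an offset of 16, another background correction, the control SD was wider, at 0.142. The changes were then also larger, at 3.24-fold, 6.46-fold and 8.28-fold. No FGF2 dose had a replicate from which its own spread could be taken.

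Serpina3g went the opposite way, and with neqc its log2 range was the widest of the 3 genes (with normexp that of Chrna1 was wider). It was well expressed in untreated fibroblasts, with signals of 5050.9, 5238.4 and 5528.5 on the control arrays. The arrays at 4, 13 and 40 ng/ml read 3161.4, 849.7 and 502.4, all below the lowest control and each below the dose before it. The control mean was 5272.6 ± 240.6 (SD, n = 3). The log2 changes were -0.83, -3.36 and -4.07, which are 1.77-fold, 10.3-fold and 16.8-fold lower levels. Against single controls the change at 4 ng/ml lay between -0.90 and -0.78, and that at 40 ng/ml between -4.14 and -4.03. The step of -2.54 between 4 and 13 ng/ml was larger than the one of -0.71 between 13 and 40 ng/ml. Serpina3g belongs to a cluster of closely related genes, and whether its probe also binds their transcripts was not tested.

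Chrna1 was not well above background in untreated cells and was detected at every dose. Its first probe had signals of 129, 104.9 and 119.2 on the control arrays, with detection scores of 0.912, 0.615 and 0.816. At 4, 13 and 40 ng/ml it read 537.4, 1105.9 and 1052. Every FGF2 array thus lay far above the controls, while 13 and 40 ng/ml differed by little and in the reverse order of dose. Since the controls give only a bound, the level was at least 1.995-fold, 4.63-fold and 5.14-fold higher at 4, 13 and 40 ng/ml with neqc. The log2 changes against the measured control mean were 1.08, 2.29 and 2.44. These bounds compare each array with the lowest signal among probes well above background on the control arrays, or with the probe's own signal where that was higher.

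The second Chrna1 probe did not show this. Its signals were 123.2, 106.8 and 118.2 on the control arrays and 127.2, 130.5 and 127.1 at 4, 13 and 40 ng/ml, and it was detected on 0 of 6 arrays. The 2 probes of the gene therefore disagree, and the account of Chrna1 rests on the first alone. The spread over beads that the files record for each member probe was 2.31% to 8.67% of its signal, which is the spread within an array and not that between cultures.

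**Figure D1:**
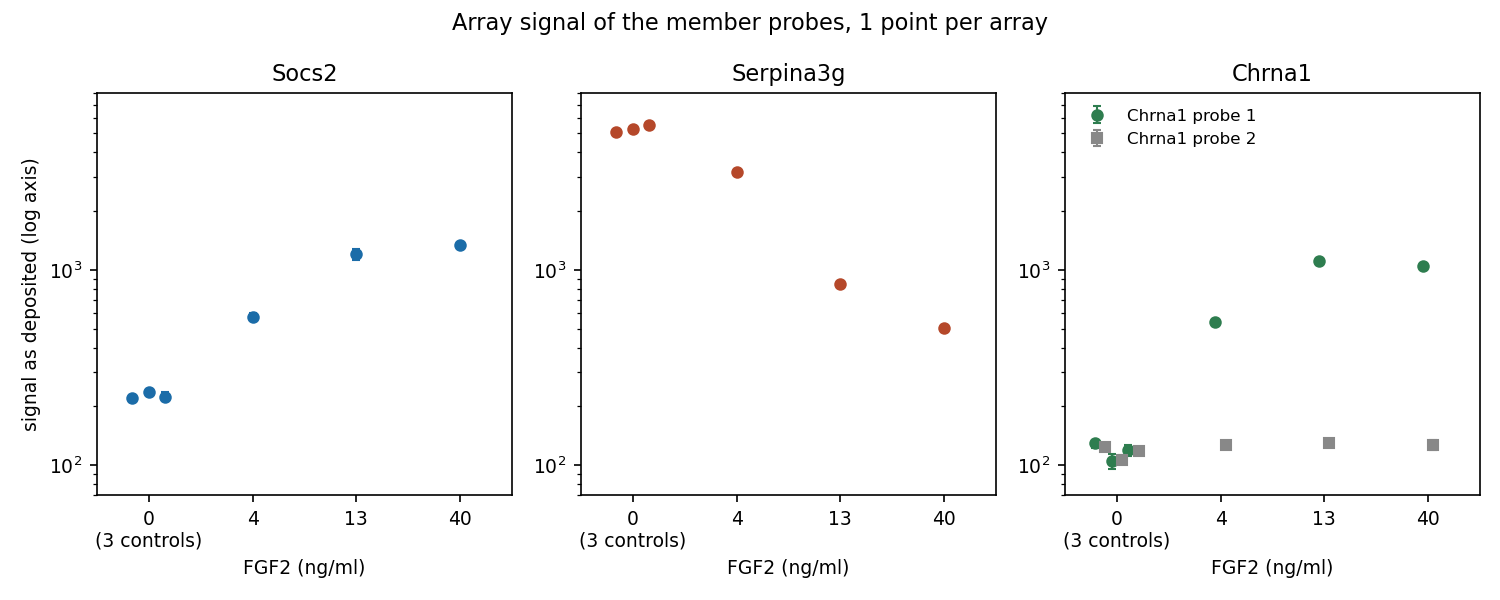
Deposited signal (log axis, background included) of the 4 member probes against FGF2 dose in ng/ml, with 1 point per array and bars for the spread over beads given in the files, most of them smaller than the points. Socs2 reads 1333 and Serpina3g 502.4 at 40 ng/ml, Chrna1 probe 1 reaches 1105.9 at 13 ng/ml, and Chrna1 probe 2 stays between 106.8 and 130.5.

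The values by which the genes were chosen are the shares of the 40 ng/ml change reached at lower doses. With neqc, 4 ng/ml gave 35.7% of the log2 change of Socs2, 20.3% of that of Serpina3g and 44.1% of that of Chrna1. The share of Chrna1 is set against control signals that were not well above background, so it and its place among other probes are uncertain on every scale. At 13 ng/ml the shares were 82.9%, 82.6% and 93.9%. Among all tested probes that changed by at least 1 on the log2 scale at 40 ng/ml, the median share at 4 ng/ml was 65.3% for the 279 higher probes (quartiles 51.7% to 75.8%). It was 74.4% for the 317 lower ones (quartiles 63.6% to 86.1%). Of the probes with the same direction, 20 had a lower share than Socs2 (7.17%), 39 had a lower share than Chrna1 (14.0%) and 4 had a lower share than Serpina3g (1.26%). For comparison, osteopontin (Spp1), a secreted matrix phosphoprotein, was already at its plateau, with log2 changes of 2.50, 2.53 and 2.50 over the 3 doses. Gch1, the entry enzyme of tetrahydrobiopterin synthesis, had 2.86, 3.80 and 4.07, a share of 70.3% at 4 ng/ml.

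How graded Socs2 and Chrna1 appear depended on the background correction, and for Serpina3g the log2 share did not. Normexp without control probes (offset 16) gave log2 changes at 4, 13 and 40 ng/ml of 1.69, 2.69 and 3.05 for Socs2, -0.77, -2.85 and -3.47 for Serpina3g and 3.13, 4.12 and 4.24 for Chrna1. The share at 4 ng/ml was then 55.6% for Socs2, 22.2% for Serpina3g and 73.9% for Chrna1. On that scale 64.2% of the 397 higher probes had a lower share than Chrna1 and 17.9% a lower share than Socs2, while 1.30% of the 540 lower probes had a lower share than Serpina3g. The bounds for Chrna1 became at least 5.16-fold, 10.3-fold and 11.1-fold. On the linear scale of the deposited signal, where a constant background cancels but arrays are not normalised to each other, the shares at 4 ng/ml were 31.5% for Socs2, 44.3% for Serpina3g and 44.9% for Chrna1, with medians of 58.3% over the higher and 78.4% over the lower probes. At 13 ng/ml the share of Chrna1 was 105.8% on this scale, against a median of 119.1% over the higher probes, so a brighter signal at 13 than at 40 ng/ml was common.

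**Figure D2:**
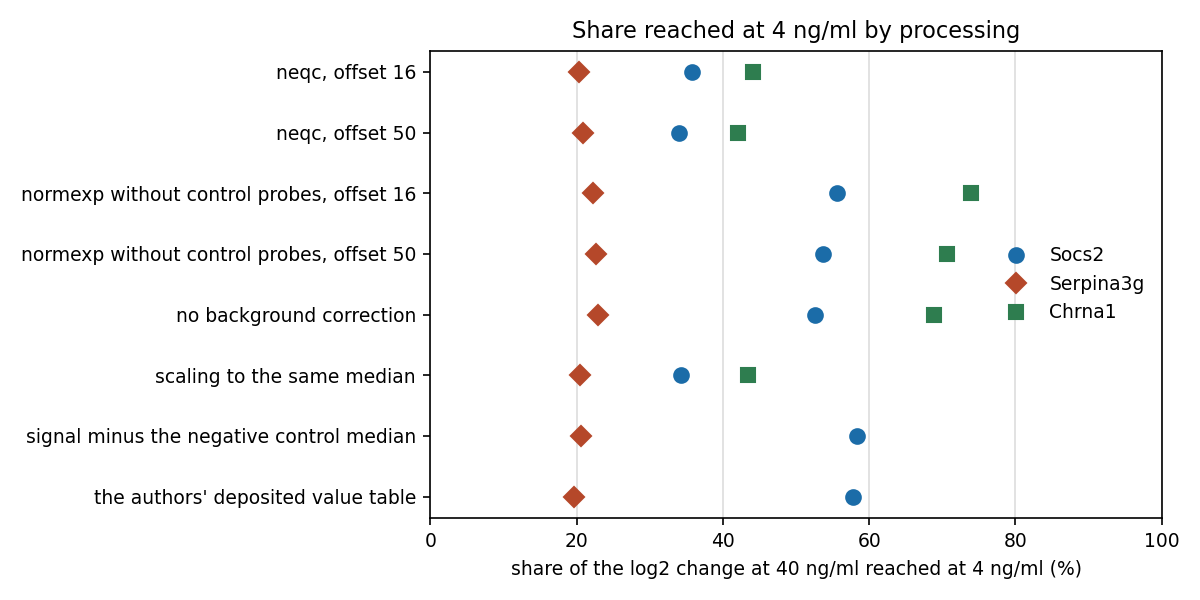
Share of the log2 change at 40 ng/ml that was reached at 4 ng/ml (x axis, percent), with 1 row per way of processing and 1 marker per gene. Serpina3g stays between 19.7% and 22.9% in all 8 rows, whereas Socs2 lies between 34.0% and 58.3%, and Chrna1 between 42.0% and 73.9% in the 6 rows that give it a value.

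**Figure D3:**
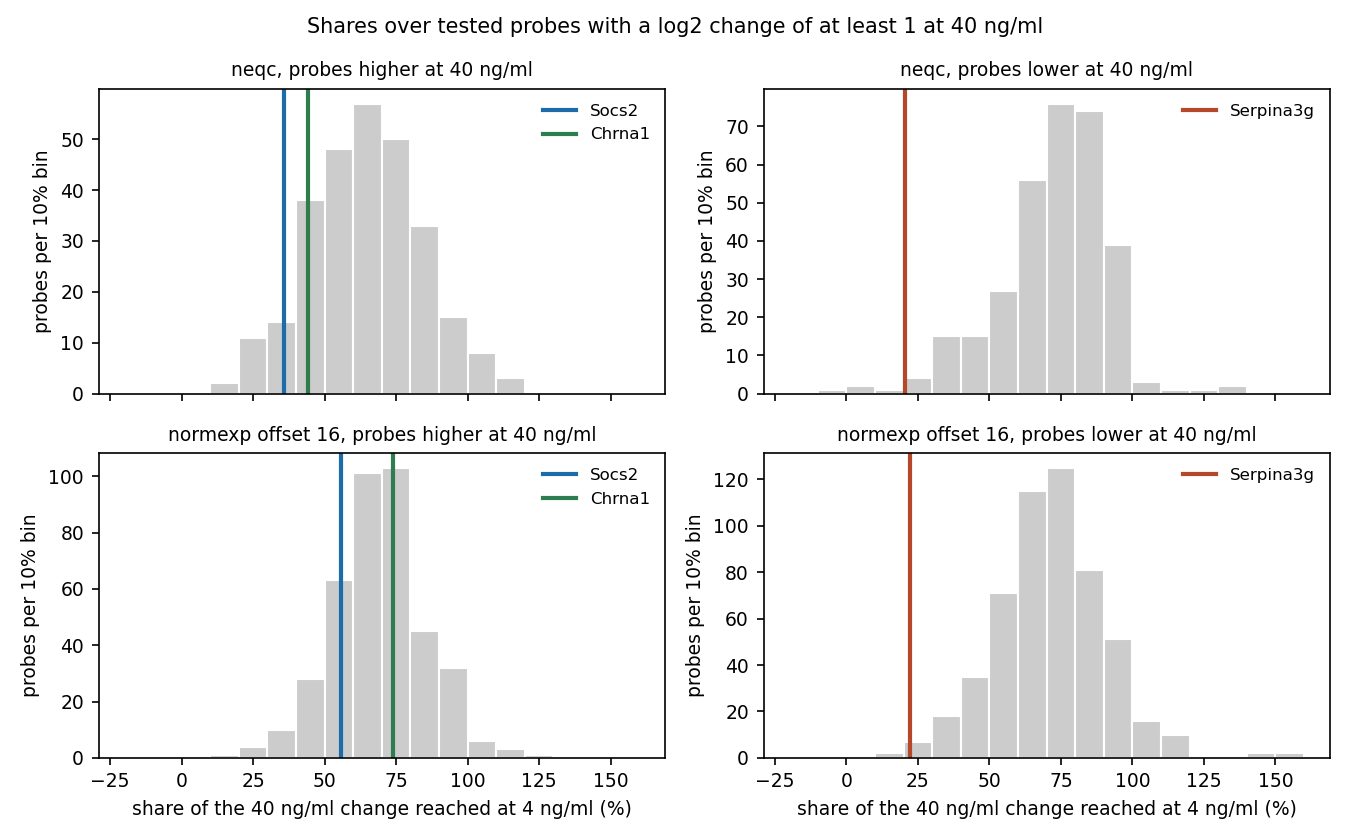
Number of tested probes (y axis) by the share of the 40 ng/ml change reached at 4 ng/ml (x axis, percent, bins of 10%), for probes with a log2 change of at least 1 at 40 ng/ml, with higher probes on the left and lower probes on the right. With neqc (upper row) the lines for Socs2 (35.7%) and Chrna1 (44.1%) stand left of the median of 65.3%, and with normexp (lower row) Chrna1 (73.9%) lies in the bulk of the distribution, while Serpina3g stands at the low end in both.

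In the authors' deposited table, Socs2 had 122.7 in the control column and 495.4, 1081 and 1377 at 4, 13 and 40 ng/ml. In the authors' deposited table, Serpina3g had 5191 in control and 3212, 736.6 and 452.2 over the doses. The first Chrna1 probe was blank for the control and had 456.1, 989.3 and 1064 in the authors' deposited table. There the 40 ng/ml value of Chrna1 lies above that at 13 ng/ml, the reverse of the raw signals. Over the 6 arrays the log2 profile of Socs2 followed that of Chrna1 (Pearson r = 0.995) and ran opposite to that of Serpina3g (r = -0.99), a description that the choice of the genes fixes in part.

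Across the array, all FGF2 arrays were compared with all controls, with the 3 doses taken as replicates of a single group. Differences between doses therefore count as scatter in this comparison, which makes it harder for a dose-graded gene to pass. Ifngr2, with log2 changes of 0.18, 1.07 and 1.12 at 4, 13 and 40 ng/ml, did not pass in it. A gene that did not pass over all doses is thus not shown to lack a response. In limma, 36.8% of the 11763 tested probes passed at an adjusted p under 0.05, 18.4% higher and 18.4% lower. With each dose set against the controls, where the lone FGF2 array is taken to scatter as the controls do, 13.9%, 25.7% and 24.8% passed at 4, 13 and 40 ng/ml. The slope over dose among the FGF2 arrays passed for 0 probes (0%) in limma, with 1236 at an unadjusted p under 0.05 and a smallest adjusted p of 0.177. The same slope passed for 0 to 71 probes under the other settings, and for 5 or more only with normexp, without background correction and with a trended robust prior. The counts for gene lists that follow are read against these percentages and leave out the 3 genes themselves.

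Among the relatives of Socs2, Socs6 rose and 2 others did not pass the test. Of the 8 genes of the SOCS family, 5 besides Socs2 had a probe and 3 of them were tested. Socs6, which binds the insulin receptor and its substrates, had signals of 212.2, 233.5 and 249.8 in control and 335.8, 496.2 and 392.6 at 4, 13 and 40 ng/ml. It rose 1.37-fold with neqc (log2 0.46 ± 0.08, SE, adjusted p = 0.0111), and its log2 change was 1.05 with normexp (offset 16). Cish, the family member closest to Socs2 and likewise a STAT5 target, did not pass (log2 -0.02, adjusted p = 0.841), and its groups overlapped. Socs1, an inhibitor of JAK kinases, had a log2 change of -0.14 (adjusted p = 0.0643), with -0.04, -0.20 and -0.17 at the 3 doses (adjusted p = 0.476, 0.0286 and 0.0452), and it passed under 6 of 13 alternatives. A second Socs6 probe and the probe of Socs7 were not detected on any array, and Socs4 was detected at 13 ng/ml only. Of these 3 tested relatives, only Socs6 passed in the comparison of all doses, and its log2 change was below that of Socs2 at each dose with both corrections.

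The SOCS box works through a ubiquitin ligase, and 1 of 3 tested genes from a list around such ligases rose. Ube2f, a conjugating enzyme for the ubiquitin-like protein NEDD8, rose 1.71-fold (log2 0.78 ± 0.07, adjusted p = 0.00148). The adaptor Elob (log2 -0.09, adjusted p = 0.127) and the RING subunit Rbx1 (log2 -0.12, adjusted p = 0.0664) did not pass.

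Of 11 tested genes of JAK-STAT signalling (24 listed), 2 rose and 4 fell, with a median log2 change of -0.08 against 0.0050 over all tested probes. Their median log2 change was 0.03, -0.08 and -0.09 at 4, 13 and 40 ng/ml. The phosphatase Ptpn1, which removes phosphate from JAK kinases, rose by 0.43 on the log2 scale (adjusted p = 0.00562). Ptpn11, or SHP2, rose by 0.19 (adjusted p = 0.0259), but its second probe had -0.02 and its call was lost in 7 of 13 alternatives. Pias1, an inhibitor of STAT proteins, fell (log2 -0.19, adjusted p = 0.00776). Il6st, the shared receptor gp130, was not well above background with FGF2 and was at least 1.07-fold lower (adjusted p = 0.0091). Its log2 change against the measured levels was -0.19 with neqc and -1.50 with normexp.

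Jak3 also passed, being at least 1.03-fold lower (adjusted p = 0.0374), again against FGF2 arrays below the detection score. Il6st and Jak3 both passed the filter on dim signals through the control arrays alone, where they were higher. The log2 change of Jak3 against the measured levels was -0.09 with neqc and -0.63 with normexp. Stat3 missed the threshold over all doses (log2 -0.38, adjusted p = 0.237), but passed at 13 ng/ml (log2 -0.70, adjusted p = 0.0336) and without the 4 ng/ml array (log2 -0.62, adjusted p = 0.00825). A second Stat3 probe passed over all doses at -0.37 (adjusted p = 0.0237). Stam2, an adaptor that binds JAK kinases, had 0.12 over all doses (adjusted p = 0.0766). Its log2 changes were 0.07, 0.20 and 0.08 at 4, 13 and 40 ng/ml, and that at 13 ng/ml passed, on 1 FGF2 array. Stat6, Tyk2 and Jak2 each had a log2 change between -0.08 and 0.03 over all doses and did not pass in that comparison. Jak2 had 0.07, -0.23 and -0.09 at 4, 13 and 40 ng/ml, and its change at 13 ng/ml passed, also on 1 FGF2 array.

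Socs2 acts on growth hormone and IGF1 signalling, and 2 of the 3 tested genes of that list (10 listed) fell. Igf1, the growth factor induced by growth hormone, had signals of 279.7, 280.5 and 279.9 in control and 128.9, 106.4 and 86.4 at 4, 13 and 40 ng/ml, where it was not well above background. It was at least 1.21-fold lower with FGF2 (adjusted p = 0.00136), and its log2 change against the measured levels was -0.37 with neqc and -2.18 with normexp. Igf1 passed the filter on dim signals through the control arrays alone. Igfbp3, which carries IGF1 in serum, fell (log2 -1.32, adjusted p = 0.00169, and -2.02 with normexp). The receptor Igf1r had 0.11 (adjusted p = 0.127).

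Among 5 tested genes of a list of STAT5 targets other than Socs2, 2 rose, 1 fell and 2 did not pass. Ccnd1, or cyclin D1, rose 3.32-fold (log2 1.73 ± 0.18, adjusted p = 0.00185), and its share at 4 ng/ml was 69.2%. The survival gene Bcl2l1 rose by 0.34 (adjusted p = 0.00566), and by 0.78 with normexp. Igf1 is the member that fell, and Cish and Socs1 are those that did not pass. The 5 tested genes thus had no single direction, and whether STAT5 had a part in their changes was not tested.

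In the Serpina3 cluster, the neighbour Serpina3n was also lower but with another shape over dose. Serpina3n encodes a secreted inhibitor of serine proteases and was the single tested member besides Serpina3g, of 4 that had a probe and 11 listed. Its signals were 797.9, 943.7 and 1042.8 in control and 341.6, 192.6 and 159.5 at 4, 13 and 40 ng/ml, with no overlap between the groups. It fell 3.45-fold (log2 -1.79 ± 0.15, adjusted p = 0.00123), by -1.52, -1.90 and -1.94 over the doses. Its share at 4 ng/ml was 78.4% with neqc, against 20.3% for Serpina3g, a difference that was not tested. Serpina3a, Serpina3k and Serpina3m were not detected on any array, with signals of 80.8 to 103.7 with FGF2 and 83.3 to 103 in control.

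**Figure D4:**
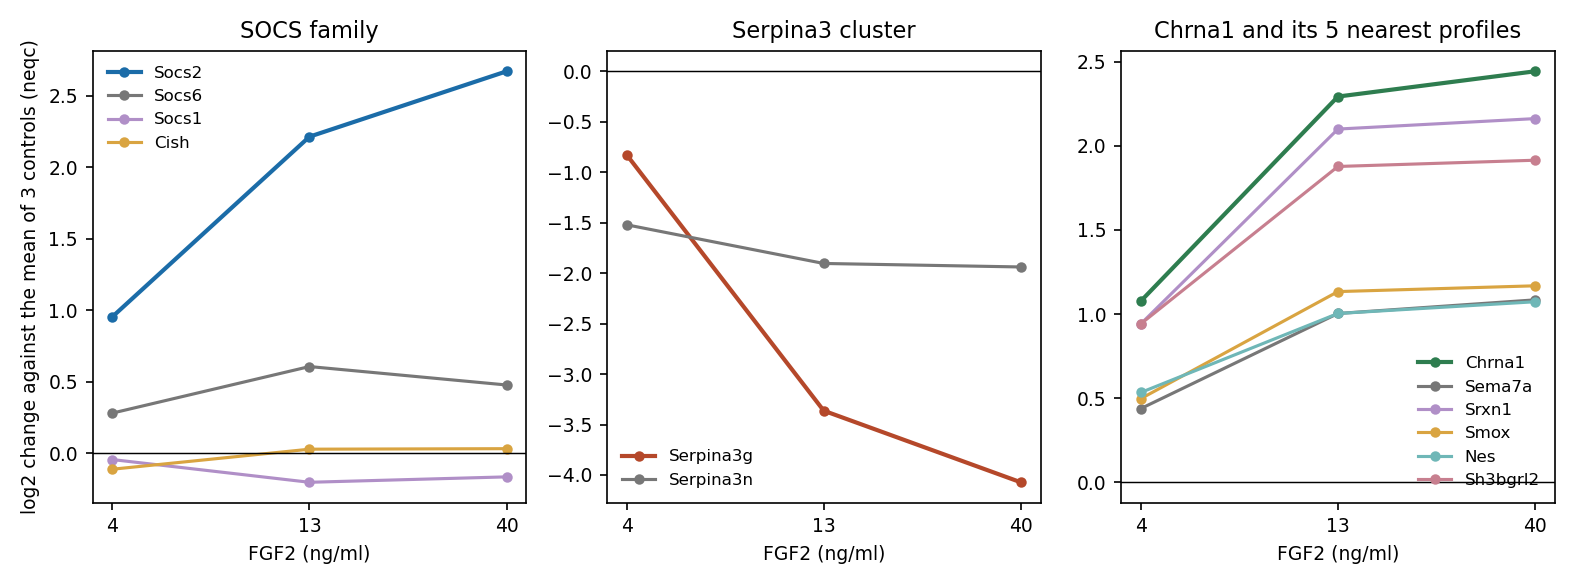
Log2 change against the mean of 3 controls (y axis, neqc) at 4, 13 and 40 ng/ml FGF2 (x axis), with 1 line per gene. Socs2 reaches 2.67 while Socs6, Socs1 and Cish stay between -0.20 and 0.61, Serpina3g starts above Serpina3n at -0.83 and ends below it at -4.07, and Chrna1 runs with its 5 nearest profiles, all of which flatten after 13 ng/ml.

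Of 28 other serpins listed, 3 were tested and 2 fell. Serpinh1, the collagen chaperone HSP47, fell (log2 -0.72 ± 0.04, adjusted p = 0.00051). Serpinf1, the secreted protein PEDF, fell by 0.45 on the log2 scale (adjusted p = 0.0103). Serpinb6a, an intracellular serpin like Serpina3g, had 0.22 (adjusted p = 0.0702) over all doses and passed at 40 ng/ml (log2 0.39, adjusted p = 0.00826). Without the 40 ng/ml array its change was 0.13 (adjusted p = 0.0415).

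Serpina3g inhibits cathepsins, and of 3 tested cathepsins and cystatins (20 listed) 1 rose and 2 fell. Cathepsin B (Ctsb) rose by 0.35 (adjusted p = 0.00363) and its second probe by 1.25 (adjusted p = 0.00134). The first probe's call was lost with scaling to the same median (adjusted p = 0.0546). Cystatin C (Cst3), a secreted cathepsin inhibitor, fell (log2 -0.82 ± 0.08, adjusted p = 0.00186). Ctsz fell by 0.23 (adjusted p = 0.0284), a call lost in 10 of 13 alternatives.

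Of 13 tested genes of the interferon gamma and NF-kappaB response (37 listed), 1 rose and 9 fell, which is 10 of 13 against 36.8% of all tested probes. Their median log2 change was -0.48. At 4 ng/ml 1 rose and 2 fell, and at 13 and at 40 ng/ml 2 rose and 6 fell. The transcription factor Irf9 fell (log2 -1.24, adjusted p = 0.00376, and -1.94 with normexp), as did the class I molecule H2-K1 (log2 -1.34, adjusted p = 0.00496). Control replicate 3 had the highest control signal for both, 902.3 for Irf9 (others 623.6 and 586.2) and 1753.6 for H2-K1 (others 1237.2 and 1492.1). Without that array their log2 changes were -1.03 and -1.26. The chemokine Ccl2 was the one that rose (log2 1.53 ± 0.11, adjusted p = 0.000846). Ifit3 was not well above background with FGF2 and was at least 1.35-fold lower there (adjusted p = 0.0628). It passed in 5 of 13 alternatives, among them without control replicate 2 (log2 -0.62, adjusted p = 0.0353), without control replicate 3 (log2 -0.30, adjusted p = 0.0317) and with normexp at an offset of 16 (log2 -1.87, adjusted p = 0.000489). Another Ifit3 probe passed, at least 1.09-fold lower (adjusted p = 0.0398), and a further one did not (at least 1.32-fold lower, adjusted p = 0.119). Each Ifit3 probe passed the filter on dim signals through the control arrays alone. Ifngr2, a subunit of the interferon gamma receptor, had 0.79 (adjusted p = 0.0784). It had a share of only 16.5% at 4 ng/ml, with log2 changes of 0.18, 1.07 and 1.12 at the 3 doses (adjusted p = 0.614, 0.0357 and 0.0334). Shares at 4 ng/ml differed among the genes of the list that fell. They were 90.3% for Irf9, 63.8% for H2-K1 and 47.4% for the adhesion molecule Vcam1, against 20.3% for Serpina3g. These differences were not tested.

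No other nicotinic receptor subunit with a probe was detected. The muscle receptor combines it with beta, delta and gamma or epsilon subunits, and of the 16 nicotinic subunits listed, 5 besides Chrna1 had a probe. These 7 probes, for Chrna3, Chrna4, Chrna5, Chrnb2 and Chrng, had signals of 85.2 to 110.9 with FGF2 and 86 to 121.4 in control, with 0 detections. Chrng, the fetal gamma subunit, is the only one of them that joins Chrna1 in the muscle receptor. Chrnb1, Chrnd and Chrne were not analysed here. Of 30 genes of the myogenic program, 9 had a probe and 0 were tested.

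Of 4 tested genes of the neuromuscular junction (17 listed), 2 fell and 0 rose. Agrn, or agrin, which clusters the receptor, fell (log2 -0.73, adjusted p = 0.00496). Dag1, or dystroglycan, fell by 0.46 (adjusted p = 0.0214), a call lost in 4 of 13 alternatives. Erbb2 had -0.02 (adjusted p = 0.605) and utrophin (Utrn) had -0.01 (adjusted p = 0.899).

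Of 5 tested E-box factors and their inhibitors (16 listed), 2 rose and 1 fell, and all 3 calls were lost under some alternatives. Zeb1, a repressor that binds E-boxes, rose by 0.54 (adjusted p = 0.0258, lost in 6 of 13 alternatives). Tcf12, a partner of myogenic factors, rose by 0.11 (adjusted p = 0.0485, lost in 12). Id3, which sequesters such partners, fell by 0.41 (adjusted p = 0.0174, lost in 5). Tcf4 had 0.27 (adjusted p = 0.0675) and Zeb2 had -0.04 (adjusted p = 0.533).

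The genes with the most similar profiles were taken by Pearson r over the 6 arrays, among named probes that changed by at least 1 at 40 ng/ml in the same direction. Being picked for likeness, they are given without a test. For Chrna1 the nearest were Sema7a (r = 0.999), a membrane-anchored semaphorin, Srxn1 (0.999), the sulfiredoxin that repairs peroxiredoxins, Smox (0.999), spermine oxidase, Nes (0.998), the intermediate filament protein nestin, and Sh3bgrl2 (0.998). Smox had log2 changes of 0.50, 1.13 and 1.17, Srxn1 had 0.94, 2.10 and 2.16 and Sh3bgrl2 had 0.94, 1.88 and 1.91. Like Chrna1, all 5 had their highest deposited signal at 13 ng/ml, and with neqc their highest value at 40 ng/ml. A deposited signal brighter at 13 than at 40 ng/ml was common. Over the 279 higher probes the lower quartile of the share at 13 ng/ml was 106.9% on that scale. The median r of the 75 candidates with Chrna1 was already 0.970, so high values were common.

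For Socs2 the nearest were Sema7a (r = 0.997), Wwtr1 (0.993), the transcriptional coactivator TAZ, Ptges (0.992), a prostaglandin E synthase, Smox (0.992) and Srxn1 (0.992). The median over its candidates was 0.957. Sema7a, Srxn1 and Smox are common to both genes. Ptges was the most graded of them, with signals of 269.4, 260.3 and 249.1 in control and 370.9, 676.8 and 699.3 at 4, 13 and 40 ng/ml. Its log2 changes were 0.30, 1.01 and 1.32, a share of 23.0% at 4 ng/ml.

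For Serpina3g no candidate came as close. The nearest of 89 were Cxcl1 (r = 0.981), a neutrophil chemokine, Vcan (0.975), the matrix proteoglycan versican, Vcam1 (0.972), an adhesion molecule induced by NF-kappaB, Fbln1 (0.970), the matrix protein fibulin 1, and Adamts2 (0.969), which trims procollagen. Cxcl1 had signals of 5483.5, 5924.4 and 5895.1 in control and 4306, 2330.8 and 2207.6 over the doses, with log2 changes of -0.48, -1.60 and -1.50. Vcan had -0.64, -1.36 and -1.58 and Vcam1 had -0.70, -1.37 and -1.47. These genes changed by far less at 40 ng/ml than the -4.07 of Serpina3g.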

How the data were processed

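The mean signal per probe is an intensity on a linear scale, and the detection score is a fraction from 0 to 1, per the file headers. The spread over beads is also an intensity per the file headers, and whether it is a standard deviation or an error of the mean is not stated there. BeadStudio 1.0 is named in the submitters' processing notes. The authors also deposited a table of intensity values whose control column is a mean of 3 replicates and whose low values are blank. Each of its columns follows its array's signal in a straight line (r of at least 0.999997), its medians are 254.9 for control and 284.5, 276.8 and 280.2 at 4, 13 and 40 ng/ml, and its centring is not stated. It was used as an alternative only.

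From the signals, neqc in limma 3.58.1 (R 4.3.3) inferred the negative controls from the detection scores, added an offset of 16, quantile-normalised and took log2. A probe was tested if its score was at least 0.99 on at least 3 arrays. A probe detected in 1 group only could enter the test through the group where it was higher. Krt18 did so through the FGF2 arrays, and Il6st, Jak3, Igf1 and the Ifit3 probes through the control arrays. For these genes the test is not independent of the filter. Tests were two-sided, with lmFit and eBayes, Benjamini-Hochberg adjustment over 11763 probes and a threshold of 0.05. For a gene with several tested probes the brightest stood for it. Gene numbers were matched to RefSeq GRCm38.p6 (9832 of 11897 numbers), which gave 8131 named genes, 3484 of them with a tested probe. The number of arrays limits the precision. The p-values at single doses rest on the spread between control arrays. Those over all doses rest on the spread within both groups, which includes the differences between doses. The fit was tested on simulated data. The 3 genes, the gene lists and the comparisons were chosen with earlier results of these data known. Apart from the 3 genes, the genes named are each gene's 5 nearest profiles, every tested gene of short lists, and the 4 largest calls and 2 closest misses of longer lists, except that 1 gene counted in the lists is not reported here. Family relatives with a probe, Spp1 and Gch1 were also named. Jak3, Il6st, Stat6, Tyk2 and Jak2, and the cell type markers, were named beyond that rule after their values were seen, as were second probes. Alternatives were other background corrections, offsets and scaling, no filter, a trended robust prior, the deposited table and leaving out each array.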

Additional observations from a re-analysis of the deposited data

How the results depend on the processing

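No recomputed change over all doses that passed the test turned its sign under any alternative. None of Socs2, Serpina3g or Chrna1 probe 1 did so either. Il6st, Jak3, Stat6, Tyk2, Jak2, cell type markers other than Nes and all second probes were not recomputed. The same holds for the single-dose changes of genes other than the 3. Cish (-0.02) and Utrn (-0.01), neither past the test, turned their sign without control replicate 3 (0.011 and 0.0035). Cish also did so without 4 ng/ml (0.03), and Utrn without 13 ng/ml (0.0073). The change of each gene at 40 ng/ml and its share reached at 4 ng/ml moved as follows. For Socs2, the log2 change was 2.46 with an offset of 50, 3.05 and 2.81 with normexp (offsets 16 and 50), 2.60 with scaling to the same median, 3.32 after subtracting the median of the negative controls and 3.49 in the authors' deposited table. Its share was 34.0%, 55.6%, 53.7%, 34.3%, 58.3% and 57.7% in the same order, and 52.6% without background correction. For Serpina3g the change was -3.93, -3.47, -3.38, -4.16, -3.66 and -3.52 in that order, and -3.32 without correction, and the share was 22.2% and 22.6% with normexp and 22.9% without correction. For Chrna1 the change was 2.20, 4.24, 3.59 and 2.38 in the order of the first 4 settings and 3.27 without correction, with shares of 42.0%, 73.9%, 70.6%, 43.5% and 68.8%. Subtraction and the deposited table give no value for Chrna1, whose controls were not well above background or blank. With neqc the inferred SD of the negative controls was 224 to 263 signal units, whereas 1 SD above their median corresponds to 14.2 to 17.6 units. Whether this SD sets the smaller changes of dim probes with neqc was not tested. Leaving out 1 control array gave changes of 2.64 to 2.71 for Socs2, -4.10 to -4.04 for Serpina3g and 2.41 to 2.45 for Chrna1, with shares of 34.9% to 36.3%, 19.5% to 20.6% and 43.6% to 44.2%.

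At 4 ng/ml 1633 probes passed, against 2483, 2681 and 2728 with normexp (offsets 16 and 50) and without correction, 1043 with median scaling and 2605 with a trended robust prior. The slope over dose passed for 0 probes, against 5, 49, 52 and 71 with normexp (16, 50), no correction and the trended prior. The 4327 probes of the comparison of all doses became 2840 without control replicate 1, 2883 without 13 ng/ml and 2618 without 40 ng/ml, and the range over all arrays left out was 2618 to 4905. Leaving out 1 control gave 298 to 1343 probes at 4 ng/ml (298 without control replicate 1, 849 without replicate 2), 1258 to 2754 at 13 ng/ml and 1218 to 2705 at 40 ng/ml (the lowest of each without replicate 1), and 0 for the slope. Of the calls over all doses, 50.1% were higher, against 36.1% with median scaling, where the median of all probes shifted to -0.03. The causes of these changes were not tested. No paired analysis was possible because each dose has 1 array and no label ties it to a control.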
